A study of Mus musculus with 27 samples.

Results

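Transcripts of 10 cardiac transcription factors were followed in the hearts of mice with and without chronic kidney disease (CKD), 7 days after myocardial infarction. The factors were taken by name as the entries of the deposited count table with the symbols Hand2, Hand1, Gata4, Gata6, Nkx2-5, Tbx5, Tbx20, Mef2a, Mef2c and Mef2d, and all 10 were found among its 27304 genes. The set was built around Hand2, which had been chosen by its small p in an earlier comparison of CKD with control mice in infarct tissue. The values of all 10 factors in that comparison, and in the difference of effects that contains it, are therefore given as a description with no test. The comparison in remote myocardium and those between regions were tested. The region comparisons use the same infarct libraries as the comparison that singled out Hand2. The p of Hand2 in them, and its place in their counts of factors called, are therefore not independent of that choice.

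All animals were male C57BL/6J mice of genotype ApoE-/-, which lack apolipoprotein E, were fed a western type diet and underwent infarction. After 4 weeks on it, CKD mice received adenine, which damages the kidney tubules, in the same diet, at 0.3% for 10 days and at 0.15% for 11 days, the infarction falling 4 days into the lower dose. Control mice stayed on the diet without adenine. Libraries were made from total RNA of frozen heart tissue, from the infarct of 7 CKD and 6 control mice and from remote myocardium, away from the infarct, of 8 CKD and 6 control mice. In all there were 27 libraries from 14 mice, 13 of which gave both regions. How the infarct was cut from the surrounding muscle is not given in the labels, and uninfarcted hearts were not analysed here.

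GATA, NK2, T-box, HAND and MEF2 factors form the core network that specifies heart muscle in the embryo and keeps contractile genes active in the adult. They bind DNA in combinations, so that GATA4, NKX2-5 and TBX5 sit together on many cardiac enhancers. Several are also made outside muscle: HAND2, GATA4, GATA6, TBX20 and MEF2 proteins occur in fibroblasts, endocardium, valves or vessel walls. Together with MEF2C and TBX5, GATA4 and HAND2 have been used to turn fibroblasts into cells with cardiomyocyte features. In bulk tissue, fewer cells of a type and less RNA per cell cannot be told apart.

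The stretch before the transcription start is shown for 3 factors whose transcripts behaved differently in the infarct: Hand2 and Nkx2-5, which fell there in control mice, and Tbx20, which did not. They were picked with their values known. Each is the 250 bases upstream of the RefSeq start in GRCm38.p6, read 5′ to 3′ on the strand of the gene; the submitters' notes name GRCm39 for the counts. Capitals mark matches on either strand to any of 6 motifs. The GATA family motif was searched as AGATAA and also as TGATAA. The HAND E-box was searched as CATCTG, the NKX2-5 motif as TNAAGTG and the T-box motif as AGGTGT, and the MEF2 box was searched as well. The windows lie at chr8:57320733-57320982 on the + strand for Hand2, at chr17:26841566-26841815 on the - strand for Nkx2-5 and at chr9:24774304-24774553 on the - strand for Tbx20.
Hand2: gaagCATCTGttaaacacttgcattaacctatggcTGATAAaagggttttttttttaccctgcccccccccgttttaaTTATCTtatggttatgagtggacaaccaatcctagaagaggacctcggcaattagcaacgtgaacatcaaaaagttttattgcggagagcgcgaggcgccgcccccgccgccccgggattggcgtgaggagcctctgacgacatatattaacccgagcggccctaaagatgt
Nkx2-5: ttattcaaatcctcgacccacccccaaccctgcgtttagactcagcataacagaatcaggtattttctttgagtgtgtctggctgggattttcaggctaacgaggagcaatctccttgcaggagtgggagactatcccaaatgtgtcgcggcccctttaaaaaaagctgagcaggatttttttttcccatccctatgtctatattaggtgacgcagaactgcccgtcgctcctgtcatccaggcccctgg
Tbx20: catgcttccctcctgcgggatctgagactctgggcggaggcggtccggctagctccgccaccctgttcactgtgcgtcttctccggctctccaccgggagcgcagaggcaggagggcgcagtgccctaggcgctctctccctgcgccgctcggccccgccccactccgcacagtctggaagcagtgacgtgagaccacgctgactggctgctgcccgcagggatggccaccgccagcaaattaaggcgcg

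The Hand2 window held 3 matches and the other two held 0. Its matches were CATCTG beginning 246 bases before the start, TGATAA beginning 215 bases before it, and AGATAA on the opposite strand beginning 172 bases before it, and none of them overlapped another. Of 32851 RefSeq windows of the same length, 14.4% held CATCTG, 7.94% held TGATAA and 9.99% held AGATAA. The shares were 10.1% for TNAAGTG, 11.8% for AGGTGT and 3.2% for the MEF2 box. RefSeq windows were matched for 6 of the 10 factors at 8 starts, and 3 of these starts held any of the 6 motifs, the other two being starts of Mef2c. A match is only a run of letters, and its absence says nothing of binding elsewhere.

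The infarct and remote libraries differed in their content of heart muscle RNA, and some libraries stood apart from their group. Total counts were 14255456 to 42566498 per library. The cardiomyocyte score, the mean of log2 CPM (counts scaled to the size of the library) over 12 muscle markers such as Myh6 and Ryr2, averaged 11.65 ± 0.66 (SD, n = 7) in infarct tissue of CKD mice and 9.93 ± 1.24 (n = 6) in that of control mice, and 12.58 ± 0.12 (n = 8) in CKD remote and 12.27 ± 0.43 (n = 6) in control remote myocardium. Among the infarct libraries, that of CKD mouse 9179 had the highest muscle score, 12.66, and the lowest score for activated fibroblast markers, 3.35, and that of CKD mouse 9172 came next in muscle score at 12.32. The infarct library of control mouse 9171 had the lowest muscle score, 7.73, and the remote library of control mouse 9180 had the lowest among remote libraries, 11.44. The remote library of mouse 9179 carries a CKD title and a control treatment label, and it was counted as CKD. Atrial markers such as Myl7 and Sln scored above 4 in 7 libraries, namely CKD infarct 9179, CKD remote 9172, 9173, 9174 and 9176, and control remote 9170 and 9171.

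Of the 9 factors that could be tested, 8 had a log2 fold change below 0 for infarct over remote tissue in each diet, and Tbx20 was the exception in both. In control mice, 7 of the 9 factors that passed the filter on low counts were lower in the infarct by edgeR's quasi-likelihood test (adjusted p under 0.05), against 33.2% of all genes tested, 30.7% being higher and 63.9% called in either direction. In CKD mice, 4 of 9 were lower and Tbx20 was higher, against 20.2% of genes lower, 24.7% higher and 45% called in either direction. The median log2 fold change of the 9 was -0.35 in CKD mice, where the median of all genes was -0.01, and -0.84 in control mice, where it was also -0.01. With CKD over control in remote myocardium, 0 of 9 factors passed, against 0.0216% of all genes. That share is 3 of 13902 genes, with 1626 at an unadjusted p under 0.05, and DESeq2 called 97 genes there, none of them one of these factors.

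**Figure D1:**
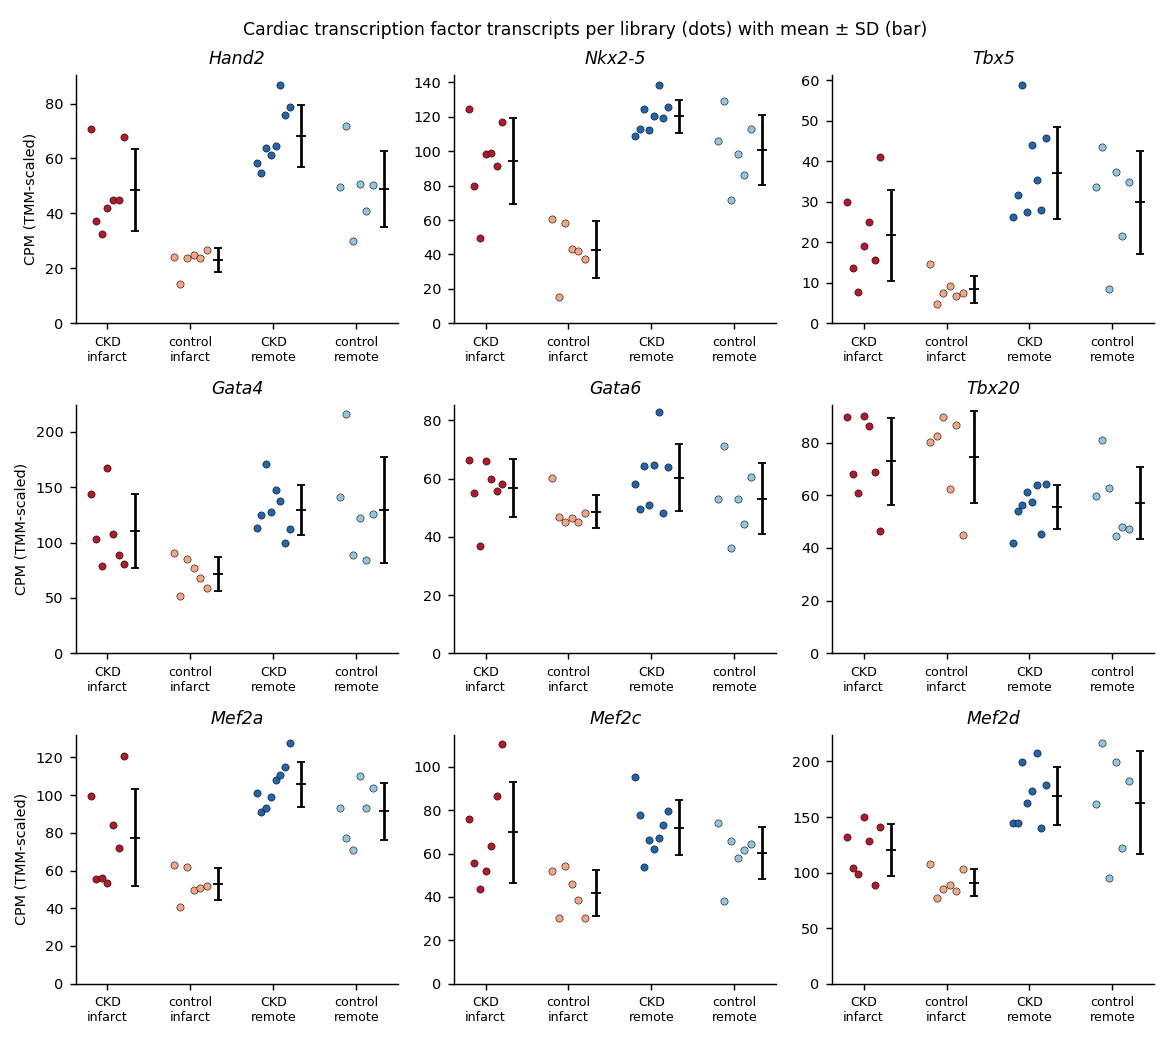
TMM-scaled CPM of 9 factors (vertical axis, from 0) in each library, by group of diet and region; dots are libraries and bars are mean ± SD. Hand2 in the 6 control infarct libraries, at 14.2 to 26.8 CPM, lies below all other groups, while Tbx20 is highest in the infarct groups. Hand2 had been chosen from a comparison of the infarct groups, so its separation there is a description.

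The HAND factors are basic helix-loop-helix proteins of the ventricles and of the sympathetic and limb primordia. Hand2 (ENSMUSG00000038193), needed for growth of the embryonic right ventricle, had a lowest, median and highest level of 32.5, 44.7 and 70.6 CPM in CKD infarct tissue, against 14.2, 24 and 26.8 CPM in control infarct tissue. In remote myocardium the same 3 values were 54.8, 64.3 and 86.9 CPM in CKD mice, against 30.02, 49.9 and 72.0 CPM in control mice. The infarct ranges of CKD and control mice did not overlap, and all 6 control infarct libraries lay below the lowest library of every other group. Since Hand2 was chosen by its small p between these infarct groups, that separation is a description and no test. The means, high to low, were 68.1 ± 11.2 CPM (SD) in CKD remote, 48.9 ± 13.9 in control remote, 48.5 ± 14.8 in CKD infarct and 22.9 ± 4.43 in control infarct tissue, and the middle pair differed by less than its spread.

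Hand2 fell in the infarct relative to remote tissue in both diets. The log2 fold change was -0.49 ± 0.17 (SE) in CKD mice (adjusted p = 0.0254) and -1.09 ± 0.20 in control mice (adjusted p = 5.54e-05). Hand2 was chosen by a gap between these same infarct groups, with control mice the lower. That choice favours a deeper fall in control mice and a shallower fall in CKD mice, so neither p is independent of it. Within single hearts Hand2 was lower in the infarct in 6 of 7 CKD mice, mouse 9172 being the exception at a log2 difference of 0.27, and in 6 of 6 control mice. In CKD mice the call was lost without the remote library of mouse 9177 (adjusted p = 0.0528) or the infarct library of mouse 9174 (0.0618) or 9175 (0.068), and when the remote tissue of mouse 9179 was counted as control (0.0559). Without CKD infarct libraries 9172 and 9179 the fold change was -0.72 ± 0.17 (adjusted p = 0.00072). Those libraries had the highest Hand2 levels of the CKD infarct group, so leaving them out could only deepen the fall.

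Between diets, Hand2 in remote myocardium had a log2 fold change of 0.46 ± 0.15 for CKD over control, which did not pass over all genes (adjusted p = 0.307; unadjusted p = 0.00814). In infarct tissue the log2 fold change of CKD over control was 1.04 ± 0.19, the value from which Hand2 had been chosen. It was 0.76 ± 0.15 without CKD infarct libraries 9172 and 9179. Adjusted for the cardiomyocyte score it was 0.47 ± 0.17.

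Hand1 (ENSMUSG00000037335), the relative of Hand2 that marks the embryonic left ventricle, was barely detected. It had 18 counts in all, in 4 of 27 libraries, and did not pass the filter on low counts. CKD infarct mouse 9179 had 5 counts, CKD remote mice 9174 and 9176 had 5 and 6, and control remote mouse 9171 had 2. In control infarct tissue it had 0 of 123579885 counts, which allows up to 0.0243 CPM (3 counts over the group; counting error only). The 4 libraries with counts were among the 5 with the highest atrial marker scores, at 4.97 to 6.04, and the remaining one of those 5, control remote 9170 with a score of 5.23, had 0. Hand2os1, the long noncoding RNA beside Hand2, was not analysed here.

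Nkx2-5 (ENSMUSG00000015579), the NK2 homeobox factor of cardiac precursors and of the adult conduction system and working muscle, was lowest in control infarct tissue. Its lowest, median and highest levels were 49.4, 98.5 and 125 CPM in CKD infarct tissue, against 15.1, 42.6 and 60.8 CPM in control infarct tissue. In remote myocardium they were 109, 120 and 138 CPM in CKD mice, against 71.7, 102 and 129 CPM in control mice. Of the 7 CKD infarct libraries only that of mouse 9175 lay within the control infarct range, and the control infarct library of mouse 9171 was the lowest of all 27.

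Nkx2-5 fell in the infarct of control mice, with a log2 fold change of -1.24 ± 0.23 (adjusted p = 6.55e-05) and no overlap between the regions. In CKD mice the fold change was -0.35 ± 0.20 (adjusted p = 0.149). It was lower in the infarct in 6 of 7 CKD hearts and 6 of 6 control hearts. In remote myocardium CKD over control gave 0.23 ± 0.10 (adjusted p = 0.401; unadjusted p = 0.0386). In infarct tissue CKD over control was 1.10 ± 0.28, or 0.92 ± 0.30 without CKD mice 9172 and 9179.

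Tbx5 (ENSMUSG00000018263), the T-box factor of the atria, left ventricle and conduction system, had the widest relative range of the tested factors. Its lowest, median and highest levels were 7.75, 19.2 and 41.1 CPM in CKD infarct tissue, against 4.69, 7.46 and 14.7 CPM in control infarct tissue. Remote levels were 26.2, 33.6 and 58.8 CPM in CKD mice, against 8.48, 34.2 and 43.7 CPM in control mice. The low end of control remote myocardium was the library of mouse 9180, whose muscle score was also the lowest of the remote libraries. The highest library of 3 groups had an atrial score above 4, mouse 9179 in CKD infarct, mouse 9174 in CKD remote and mouse 9171 in control remote tissue, and the part of atrial RNA in Tbx5 was not tested.

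Tbx5 fell in the infarct of control mice, with a log2 fold change of -1.84 ± 0.36 (adjusted p = 0.000118), the largest of the 9 fold changes in that comparison. In CKD mice the fold change was -0.78 ± 0.31 (adjusted p = 0.0457), and this call was lost in 9 of the 15 fits that left out 1 CKD library, up to an adjusted p of 0.103 without the infarct library of mouse 9175. Without CKD infarct libraries 9172 and 9179 it was -1.16 ± 0.32 (adjusted p = 0.00353). Both were the highest CKD infarct libraries in Tbx5, so a deeper fall follows from leaving them out. Remote CKD over control was 0.30 ± 0.28 (adjusted p = 0.704), and infarct CKD over control was 1.33 ± 0.35, or 0.91 ± 0.31 without mice 9172 and 9179.

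Tbx20 (ENSMUSG00000031965), a T-box repressor and activator of heart muscle, endocardium and valves, ran the other way. Its lowest, median and highest levels were 46.4, 68.9 and 90.1 CPM in CKD infarct tissue, against 44.8, 81.4 and 89.8 CPM in control infarct tissue. The remote values were 41.7, 56.7 and 64.4 CPM in CKD mice, against 44.4, 53.8 and 80.8 CPM in control mice. All 4 ranges overlapped, the infarct medians being above both remote medians. Tbx20 rose in the infarct of CKD mice, with a log2 fold change of 0.40 ± 0.16 (adjusted p = 0.0435), and in control mice it was 0.38 ± 0.18 (adjusted p = 0.0621).

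The Tbx20 calls stood close to the threshold. With the mouse number as a replicate block the change in CKD mice was 0.37 ± 0.16 (adjusted p = 0.0591), and the call was lost in 10 of the 15 fits without 1 CKD library, up to 0.0964 without the infarct library of mouse 9176. In control mice DESeq2 put Tbx20 past the threshold (adjusted p = 0.039), as did the edgeR fit without the remote library of mouse 9171 (0.012) or the infarct library of mouse 9182 (0.0489) or 9184 (0.0134). Within hearts it was higher in the infarct in 5 of 7 CKD and 5 of 6 control mice. CKD over control was -0.07 ± 0.14 in remote myocardium (adjusted p = 0.881) and -0.06 ± 0.19 in infarct tissue.

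**Figure D2:**
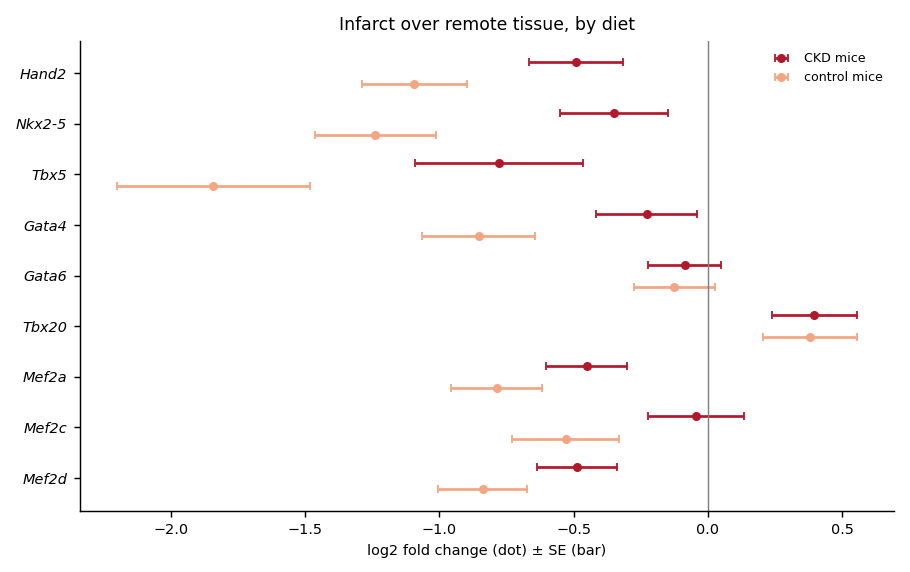
log2 fold change ± SE of infarct over remote tissue (horizontal axis) for 9 factors, from the edgeR fit of all 27 libraries, with CKD mice above control mice for each factor. Tbx20 is the one factor to the right of 0 in both, at 0.40 and 0.38, and Tbx5 in control mice lies farthest left, at -1.84.

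GATA4 and GATA6 are zinc finger factors that share many cardiac targets and partly replace each other in development. Gata4 (ENSMUSG00000021944) had a lowest, median and highest level of 79.3, 103 and 167 CPM in CKD infarct tissue, against 51.6, 72.2 and 90.6 CPM in control infarct tissue. Away from the infarct they were 99.4, 126 and 171 CPM in CKD mice, against 84.3, 124 and 216 CPM in control mice. The control infarct libraries were the low group, with 4 of its 6 libraries below every CKD infarct library, and the other 3 groups overlapped widely. Gata4 fell in the infarct of control mice (-0.85 ± 0.21, adjusted p = 0.00109), while in CKD mice the fold change was -0.23 ± 0.19 (adjusted p = 0.319). It was lower in the infarct in 5 of 7 CKD and 6 of 6 control hearts.

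Gata6 (ENSMUSG00000005836) differed little between the groups. Its lowest, median and highest levels were 36.8, 58.0 and 66.4 CPM in CKD infarct tissue, against 45.0, 46.7 and 60.0 CPM in control infarct tissue. In remote tissue the values were 48.2, 61.0 and 83.0 CPM in CKD mice, against 36.3, 53.1 and 71.0 CPM in control mice. No neighbouring pair of group means differed by more than its larger SD. Infarct over remote was -0.09 ± 0.14 in CKD mice (adjusted p = 0.609) and -0.13 ± 0.15 in control mice (adjusted p = 0.47), and the control value turned to 0.02 without the remote library of mouse 9171. CKD over control in remote myocardium was 0.17 ± 0.14 for Gata6 (adjusted p = 0.677) and -0.02 ± 0.18 for Gata4 (adjusted p = 0.978). In infarct tissue CKD over control was 0.18 ± 0.13 for Gata6 and 0.58 ± 0.20 for Gata4, which was 0.55 ± 0.20 without CKD mice 9172 and 9179.

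MEF2 proteins are MADS-box factors that activate contractile and metabolic genes and are held in check by class IIa histone deacetylases. Mef2a (ENSMUSG00000030557), a major form in the adult heart, had a lowest, median and highest level of 53.4, 72.1 and 121 CPM in CKD infarct tissue, against 40.8, 51.2 and 63.1 CPM in control infarct tissue. Remote myocardium gave 91.0, 105 and 128 CPM in CKD mice, against 70.7, 93.3 and 110 CPM in control mice. The regions did not overlap in control mice, and in CKD mice the libraries of mice 9172 and 9179, at 99.4 and 121 CPM, brought the infarct range into the remote one. Mef2a fell in the infarct of CKD mice (-0.45 ± 0.15, adjusted p = 0.0188) and of control mice (-0.79 ± 0.17, adjusted p = 0.000292), and it was lower in the infarct of every heart with both regions. The CKD call was lost without the infarct library of mouse 9174 (adjusted p = 0.0512) or 9175 (0.0523). The fold change was -0.68 ± 0.12 without mice 9172 and 9179, a deeper fall that follows from leaving out the highest infarct libraries.

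Mef2d (ENSMUSG00000001419), which drives stress-dependent remodelling in mouse hearts, gave the steadiest regional difference. Its lowest, median and highest levels were 89.2, 128 and 150 CPM in CKD infarct tissue, against 77.3, 86.9 and 108 CPM in control infarct tissue. Remote libraries had 140, 168 and 208 CPM in CKD mice, against 95.2, 172 and 217 CPM in control mice. The control remote libraries spread the widest, with mouse 9180 the lowest, and regions overlapped in both diets. Mef2d fell in the infarct of CKD mice (-0.49 ± 0.15, adjusted p = 0.0114) and of control mice (-0.84 ± 0.17, adjusted p = 0.000139), in 7 of 7 and 6 of 6 hearts, and it kept its call in all 15 and all 12 fits that left out 1 library.

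Mef2c (ENSMUSG00000005583), the form needed for the embryonic right ventricle and also made in endothelium, had a lowest, median and highest level of 43.8, 63.6 and 111 CPM in CKD infarct tissue, against 30.1, 42.2 and 54.2 CPM in control infarct tissue. The remote libraries gave 53.7, 70.2 and 95.5 CPM in CKD mice, against 38.3, 63.1 and 74.1 CPM in control mice. The CKD groups had similar means, 69.8 CPM in infarct and 71.9 CPM in remote tissue, but the infarct range was wider and took in the remote one. The highest Mef2c library of all was the infarct of CKD mouse 9179. Mef2c fell in the infarct of control mice (-0.53 ± 0.20, adjusted p = 0.0227), a call lost without the remote library of mouse 9170 (0.0637) or the infarct library of mouse 9171 (0.0617) or 9184 (0.0586). In CKD mice the value was -0.05 ± 0.18 (adjusted p = 0.847).

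Between diets in remote myocardium, CKD over control was 0.19 ± 0.10 for Mef2a (adjusted p = 0.471), 0.23 ± 0.14 for Mef2c (adjusted p = 0.55) and 0.04 ± 0.16 for Mef2d (adjusted p = 0.947). In infarct tissue it was 0.50 ± 0.19 for Mef2a, 0.69 ± 0.22 for Mef2c and 0.36 ± 0.14 for Mef2d. Without CKD infarct libraries 9172 and 9179 these 3 values were 0.23 ± 0.15, 0.48 ± 0.20 and 0.27 ± 0.14. Of the 3, Mef2a had the largest shift when those libraries were left out.

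**Figure D3:**
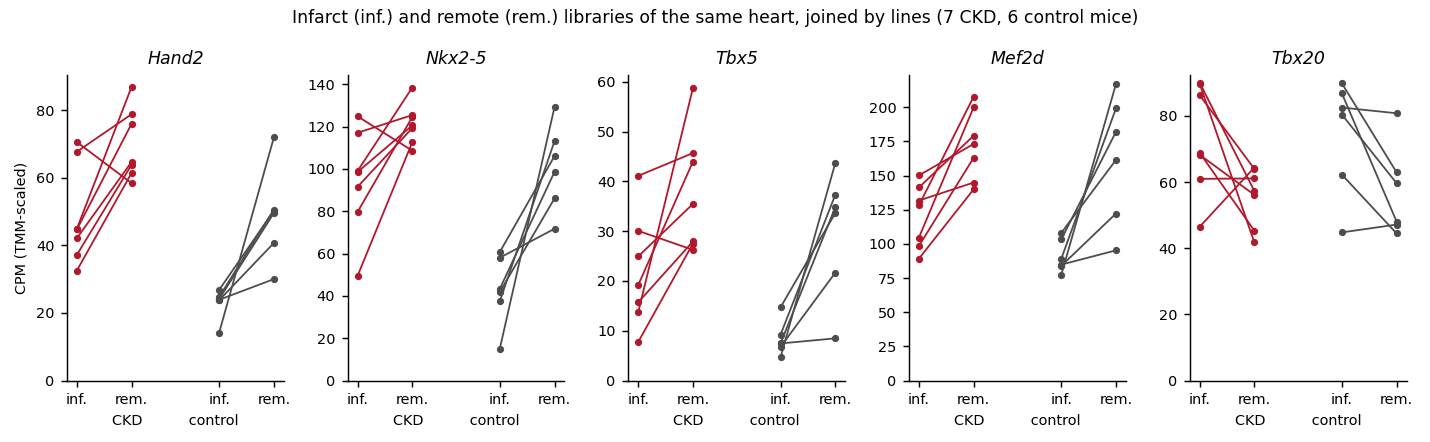
TMM-scaled CPM (vertical axis, from 0) of 5 factors in the infarct and remote library of the same heart, joined by lines, for 7 CKD and 6 control mice. Mef2d is lower in the infarct of every heart, and Tbx20 is higher in the infarct of 5 CKD and 5 control hearts.

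Ranked by their means from high to low, Nkx2-5, Tbx5, Mef2a and Mef2d had the same order of groups as Hand2: CKD remote, control remote, CKD infarct and control infarct. In Mef2c and Gata6 CKD infarct came second and control remote next, in Gata4 control remote came just before CKD remote, and in Tbx20 the order was control infarct, CKD infarct, control remote and CKD remote. Control infarct tissue was thus lowest for 8 of 9 factors. It lay below its neighbour by more than the larger of the 2 SDs for Hand2, Nkx2-5, Tbx5, Gata4, Mef2c and Mef2d. Of the other neighbouring pairs, only CKD and control remote tissue for Hand2 differed by that much. How many of all genes share this order was not counted, so the order is not shown to be particular to the factors. The order also contains the comparison from which Hand2 was chosen.

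As a description, the 9 factors in infarct tissue had a median log2 fold change of 0.58 for CKD over control, where the median of all genes was -0.02. Over all genes edgeR called 20.3% of 14358 in this comparison, 13.1% higher and 7.14% lower. Without CKD infarct libraries 9172 and 9179 edgeR called 0 of 14515 genes, with 4064 at an unadjusted p under 0.05; DESeq2 was run with all libraries only, where it called 4557. Leaving out control infarct mouse 9171, 9182 or 9183, or CKD infarct mouse 9172 or 9177, alone also left 0 genes called, with 4476 to 5311 at an unadjusted p under 0.05. The infarct minus remote change in CKD mice exceeded that in control mice by a log2 value of 0.60 ± 0.26 for Hand2, 0.63 ± 0.28 for Gata4, 0.89 ± 0.30 for Nkx2-5 and 1.06 ± 0.47 for Tbx5. It was 0.34 ± 0.23 for Mef2a, 0.48 ± 0.27 for Mef2c and 0.35 ± 0.22 for Mef2d, and 0.04 ± 0.20 for Gata6 and 0.02 ± 0.24 for Tbx20. For this difference edgeR called 0 of 14770 genes (0%), with 2787 at an unadjusted p under 0.05, and DESeq2 called 600, Nkx2-5 being the 1 factor among them. Nothing is read from that call, since the difference contains the values by which Hand2 was chosen. A factor called lower in the infarct of control mice alone is not thereby shown to differ between diets.

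**Figure D4:**
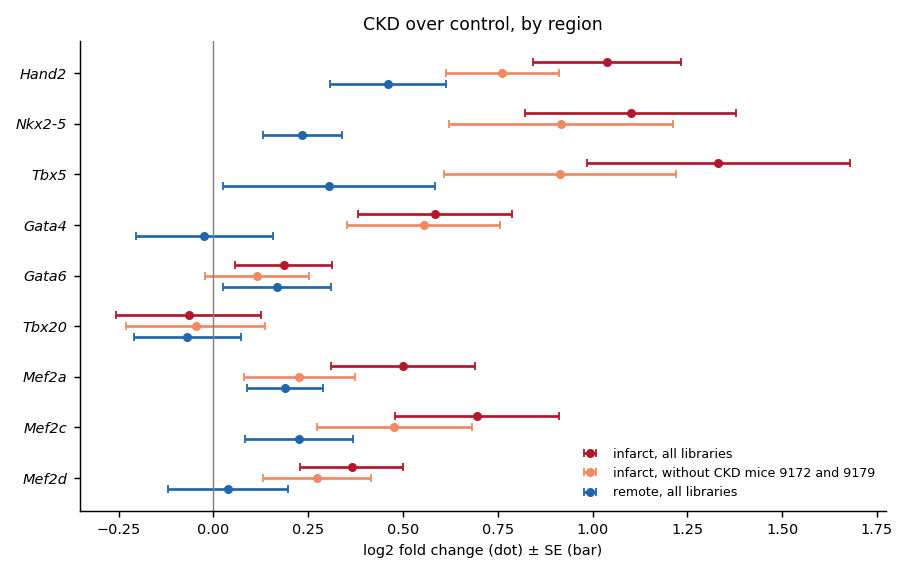
log2 fold change ± SE of CKD over control (horizontal axis) for 9 factors: in infarct tissue with all libraries, in infarct tissue without CKD mice 9172 and 9179, and in remote myocardium. Infarct values run from -0.06 for Tbx20 to 1.33 for Tbx5, and Hand2 at 0.46 is the largest in remote myocardium.

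The median log2 fold change of the cardiomyocyte markers was larger in size than that of the factors, both between the regions and between diets in infarct tissue. In infarct over remote tissue the 12 markers had log2 fold changes of -1.06 to -0.36 in CKD mice, with a median of -0.89. There 3 of 12 were called lower, against 20.2% of all genes. In control mice they had -2.80 to -1.05, with a median of -2.24, and 12 of 12 were called lower, against 33.2% of all genes. All 9 factors had a smaller log2 fold change in size than the marker median in each diet, and 5 of 9 in CKD and 6 of 9 in control mice lay above the highest marker. Within hearts, the infarct minus remote difference of the cardiomyocyte score averaged -0.96 ± 0.62 in CKD mice (SD, n = 7) and -2.34 ± 1.32 in control mice (n = 6). For CKD over control the marker median was 1.43 in infarct tissue, with 5 of 12 called higher, against 13.1% of all genes. These marker calls were lost in the fits named above that left 0 genes called. In remote myocardium the marker median was 0.24, with 0 of 12 called. Adjusted for that score, edgeR called 0 genes in either region, with 530 in infarct tissue and 1036 in remote myocardium at an unadjusted p under 0.05, and the factors' infarct values then ran from 0.03 for Gata6 to 0.47 for Hand2. The score itself differed between diets in infarct tissue, at 11.65 in CKD and 9.93 in control mice. Adjusting for it therefore cannot give the part of muscle content in the factors' differences, and that part was not tested.

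Markers of other cell types, some of which also make several of these factors, moved between the regions as well. Over all genes, 24.7% were called higher and 20.2% lower in the infarct of CKD mice, and 30.7% and 33.2% in control mice. All 7 endothelial markers were called lower in the infarct in both diets, with a median log2 fold change of -0.51 in CKD and -0.78 in control mice. Of 11 activated fibroblast markers, 10 were called higher in CKD mice (median 4.08) and 11 in control mice (median 3.12). All 7 macrophage markers were called higher in both diets, with a median of 1.96 in CKD and 1.94 in control mice. Of 8 resting fibroblast markers, 6 were called higher and 1 lower in each diet. In smooth muscle markers 2 of 6 were called higher and 2 lower in CKD mice, and 1 higher and 2 lower in control mice. For so few markers, the smooth muscle counts lie near the shares over all genes. The part of these cell types in the factors' regional differences was not tested.

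Set against the muscle markers of the same library, Hand2 gave another order of groups, while Tbx20 kept the order of its means. The log2 CPM of Hand2 minus the cardiomyocyte score was -6.10 ± 0.30 (SD, n = 7) in CKD infarct, -5.44 ± 0.96 (n = 6) in control infarct, -6.51 ± 0.20 (n = 8) in CKD remote and -6.71 ± 0.31 (n = 6) in control remote tissue. For Tbx20 it was -5.49 ± 0.78 in CKD infarct, -3.76 ± 1.45 in control infarct, -6.80 ± 0.29 in CKD remote and -6.47 ± 0.62 in control remote tissue. Both differences were thus higher in the infarct than in remote tissue, and highest on average in control infarct tissue, where the library of mouse 9171 gave the highest values of both. On average, every other tested factor was also higher in both infarct groups than in both remote groups, and highest in control infarct tissue. For Tbx5 in CKD mice the gap was small, at -7.37 in infarct against -7.42 in remote tissue. These differences have no test, since they share the markers' own change.

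After the mean of each group was subtracted, the factors tracked the cardiomyocyte score to different degrees over the 27 libraries, in which the regions of a heart share the animal. Pearson's r was 0.84 for Nkx2-5, 0.73 for Hand2, 0.69 for Tbx5, 0.66 for Mef2a, 0.54 for Mef2d, 0.44 for Mef2c, 0.40 for Gata6 and 0.38 for Gata4, and -0.29 for Tbx20. Without the 2 libraries farthest in the score, CKD infarct 9179 and control infarct 9171, r was 0.70 for Nkx2-5, 0.64 for Hand2, 0.70 for Tbx5, 0.61 for Mef2a, 0.57 for Mef2d, 0.26 for Mef2c, 0.53 for Gata6, 0.42 for Gata4 and -0.14 for Tbx20. For Mef2c, r was 0.58 over the 13 infarct libraries and -0.05 over the 14 remote ones. Among the 36 pairs of the 9 factors, r ranged from -0.22 to 0.82 with a median of 0.56, the highest being Tbx5 with Mef2d. The 8 pairs with Tbx20 ran from -0.22 to 0.57. All are descriptions of libraries that also share depth and scaling.

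**Figure D5:**
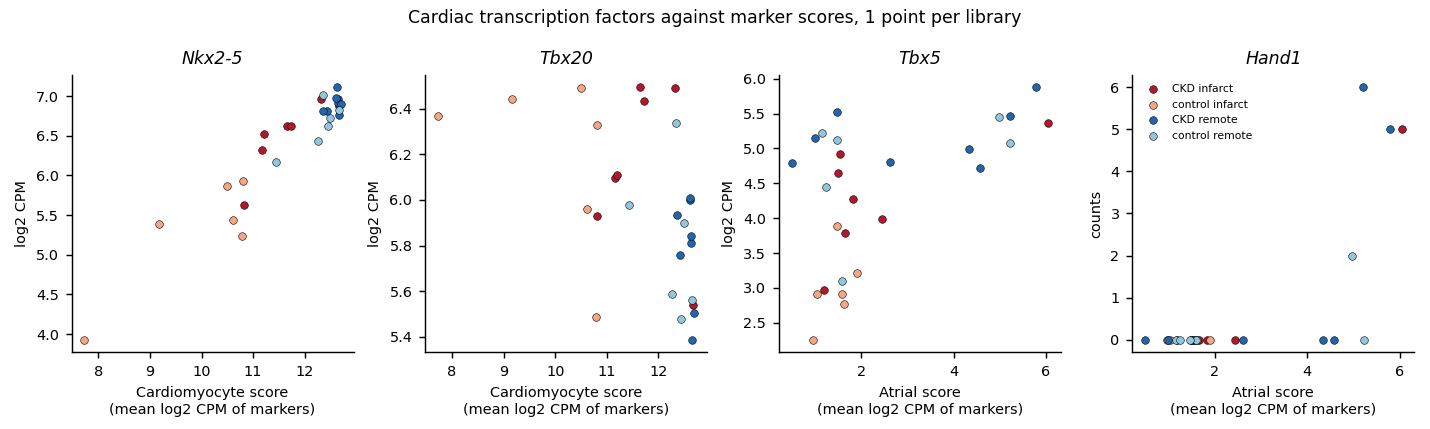
Each point is a library: log2 CPM of Nkx2-5 and Tbx20 against the cardiomyocyte score, log2 CPM of Tbx5 against the atrial score, and Hand1 counts against the atrial score. Nkx2-5 climbs with the muscle score and Tbx20 does not, and the 4 libraries with Hand1 counts have atrial scores of 4.97 to 6.04.

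By the same group-centred correlation, genes most like each factor were found among 13258 genes whose mean reached 1 CPM. Nkx2-5 was closest to Popdc2 (r = 0.93), Gpd1 (0.92) and Actc1 (0.92), the last being cardiac actin. Hand2 was closest to Snrpn (0.88), Isca1 (0.87) and Kcnh2 (0.87), and Tbx5 to Tsc22d4 (0.94), Csdc2 (0.94) and Kcnj5 (0.92), where Kcnh2 and Kcnj5 encode cardiac potassium channel subunits. Tbx20 was closest to Cpq (0.81), H1f2 (0.78) and Ltbp1 (0.77). The first gene was Slc35f5 for Gata4 (0.92), Spock2 for Gata6 (0.87), Ghr for Mef2a (0.94), Srek1ip1 for Mef2c (0.91) and Kif13a for Mef2d (0.95).

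Among 19 genes known as targets of these factors, 2 fell and 2 rose in the infarct of CKD mice, where 20.2% of all genes fell and 24.7% rose. In control mice 13 fell and 1 rose, where 33.2% of all genes fell and 30.7% rose. The median log2 fold change was -0.36 in CKD and -1.22 in control mice. In control mice Smyd1, a muscle methyltransferase, was at -2.06 ± 0.36 (adjusted p = 3.85e-05), Ckm, muscle creatine kinase, at -2.24 ± 0.42 (adjusted p = 7.63e-05) and Myh6, the fast cardiac myosin, at -2.40 ± 0.45 (adjusted p = 7.69e-05). In CKD mice Nppa, the atrial natriuretic peptide, rose by 3.55 ± 0.72 (adjusted p = 0.000554) and Ankrd1, a stress-induced muscle protein, by 1.17 ± 0.38 (adjusted p = 0.0153), while Ckm fell (-0.95 ± 0.36, adjusted p = 0.0363). For Nppa and Ankrd1 the values in control mice were 1.68 ± 0.76 (adjusted p = 0.0574) and 0.17 ± 0.42 (adjusted p = 0.733). Mouse 9180 had the highest control remote level of both genes. Its Nppa was 1807 CPM against a group median of 182 CPM, and its Ankrd1 was 3845 against 1192 CPM. Values of these genes without that library are not given here, so a difference between diets is not read from them. For CKD over control, 0 of 19 passed in remote myocardium. Nppa was at -1.82 ± 0.71 there (adjusted p = 0.355), with the library of mouse 9180 in the control group. In infarct tissue, where all calls were lost in the fits named above that left out 1 of 5 libraries, 6 of 19 were higher, against 13.1% of all genes, among them Smyd1 (1.60 ± 0.42, adjusted p = 0.0345), Tnnc1, cardiac troponin C (1.77 ± 0.50, adjusted p = 0.0354) and Ryr2, the calcium release channel (1.29 ± 0.38, adjusted p = 0.0368). Of the 19 targets, 7 are also among the 12 cardiomyocyte markers.

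Of 13 partner proteins, 2 rose and 4 fell in the infarct of CKD mice, where 45% of all genes were called in either direction, and 3 rose and 5 fell in control mice, where 63.9% were. These counts lie near the shares over all genes. Nfatc4, a calcineurin-activated partner of GATA4, rose by 0.93 ± 0.18 in CKD (adjusted p = 0.000327) and by 1.59 ± 0.20 in control mice (adjusted p = 9.45e-06). Smarcd3, the BAF chromatin subunit that works with TBX5 and GATA4, fell by 0.46 ± 0.12 in CKD (adjusted p = 0.00325) and by 0.88 ± 0.13 in control mice (adjusted p = 1.48e-05). Zfpm1, a GATA cofactor, fell by 0.34 ± 0.11 in CKD (adjusted p = 0.0141) and by 0.74 ± 0.12 in control mice (adjusted p = 2.23e-05). Tcf12, an E protein that pairs with HAND factors, rose by 0.37 ± 0.11 in CKD (adjusted p = 0.00918) and by 0.70 ± 0.12 in control mice (adjusted p = 4.37e-05). For CKD over control, 0 of 13 passed in remote myocardium, and 4 were higher and 3 lower in infarct tissue, where 13.1% of all genes were higher and 7.14% lower. Among the lower were Nfatc4 (-1.06 ± 0.23, adjusted p = 0.0345) and Tcf3, another E protein (-0.33 ± 0.09, adjusted p = 0.0354). Among the higher was Smarcd3 (0.54 ± 0.15, adjusted p = 0.0345). These infarct calls were also lost in the fits named above that left 0 genes called.

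Of 9 regulators of MEF2 activity, 1 rose and 5 fell in the infarct of CKD mice, where 24.7% of all genes rose and 20.2% fell, and 1 rose and 6 fell in control mice, where 30.7% rose and 33.2% fell. The riser was Mapk7, the kinase ERK5 that activates MEF2C, at 0.56 ± 0.15 in CKD (adjusted p = 0.00572) and 0.91 ± 0.17 in control mice (adjusted p = 8.29e-05). Hdac5, a class IIa repressor of MEF2, fell by 0.49 ± 0.13 in CKD (adjusted p = 0.00382) and by 0.76 ± 0.14 in control mice (adjusted p = 7.63e-05). Hdac9, of the same class, was at -0.25 ± 0.18 in CKD mice (adjusted p = 0.249) and fell in control mice (-1.02 ± 0.20, adjusted p = 0.000147). Prkd1, a kinase that removes these repressors from the nucleus, fell by 0.46 ± 0.13 in CKD (adjusted p = 0.00766) and by 0.46 ± 0.15 in control mice (adjusted p = 0.00864). For CKD over control, 0 of 9 passed in remote myocardium and 1 of 9 in infarct tissue, against 20.3% of all genes. It was Hdac9 (0.74 ± 0.23, adjusted p = 0.0394), and its call was lost in the fits named above that left 0 genes called.

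Of 22 other developmental factors of the heart that were tested, 4 rose and 7 fell in the infarct of CKD mice, and 5 rose and 9 fell in control mice. Set beside the 45% of all genes called in CKD and the 63.9% called in control mice, these counts are near the background. Irx4, the ventricular Iroquois factor, was at -0.62 ± 0.26 in CKD mice (adjusted p = 0.0572) and fell in control mice (-1.75 ± 0.30, adjusted p = 3.91e-05). Gata2, a GATA factor of endothelium and blood, fell by 0.92 ± 0.24 in CKD (adjusted p = 0.00355) and by 1.53 ± 0.26 in control mice (adjusted p = 3.95e-05). Id2, an inhibitor of helix-loop-helix factors, rose by 1.36 ± 0.22 in CKD (adjusted p = 0.000103) and by 1.67 ± 0.25 in control mice (adjusted p = 1.49e-05). Tbx18, an epicardial T-box factor, rose by 1.36 ± 0.23 in CKD (adjusted p = 0.000138) and by 1.25 ± 0.26 in control mice (adjusted p = 0.000209). Tbx2, a T-box repressor, fell by 0.54 ± 0.12 in CKD (adjusted p = 0.00135) and by 0.47 ± 0.13 in control mice (adjusted p = 0.00378). For CKD over control, 0 of 21 passed in remote myocardium, and in infarct tissue 3 were higher and 1 lower, against 13.1% and 7.14% of all genes. The 3 were Irx3 (1.20 ± 0.31), Irx4 (1.41 ± 0.38) and Irx5 (1.54 ± 0.42), each with an adjusted p of 0.0345. All infarct calls of this list were lost in the fits named above that left 0 genes called. Of the 24 genes listed, 4 are also in the marker lists, Irx4 among them. For the difference between diets in the regional change, 0 genes of these 4 lists passed by edgeR, where Smyd1 had 1.36 ± 0.46 and Irx4 1.13 ± 0.39 (adjusted p = 0.165 for both).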

How the data were processed

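Bulk RNA was sequenced in 27 libraries of mouse heart. The authors deposited 1 table of counts per gene, whole numbers that were not normalized. Kallisto 0.48.0 and the GRCm39 build are named, per the submitters' processing notes; how transcript estimates became gene counts, the annotation and any filter are not given in the sources used here. Groups came from the sample titles, and all 27 columns were matched to a sample by name. Levels came from the counts alone, and promoter windows from RefSeq.

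After filterByExpr and TMM scaling, differences were tested with edgeR 4.0.16 (R 4.3.3), by its quasi-likelihood F test. P-values were adjusted by Benjamini-Hochberg over all genes tested, and the threshold was 0.05. Diets were compared within the libraries of 1 region; the other 3 comparisons are contrasts of 4 group means fitted to all 27 libraries. Each standard error is the fold change divided by the square root of F. CPM are TMM-scaled over all 27 libraries, and scores are mean log2 CPM with a prior count of 2. The tests were tested on simulated data. The 10 factors, the 4 gene lists and the marker lists were chosen with earlier results of these data known. Of each list, up to 3 called genes with the smallest p, or 2 where none was called, were eligible to be named in a comparison, and for each factor the 3 genes with the most similar pattern. A selection of these is printed.

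Infarct and remote libraries of 13 mice are paired by animal. Residuals of the pairs correlated at -0.103 to 0.398 (median 0.172), against a median of -0.0195 between other mice. No 2 libraries of a group agreed within sampling noise (lowest chi-square per degree of freedom 9.03 over 79 pairs). Nothing in the labels gives a sequencing batch. Alternatives were DESeq2 size factors, DESeq2 1.42.0, no filter, a filter at a mean of 1 CPM, the mouse as a replicate block, the cardiomyocyte score as a covariate, a fit of all libraries, mouse 9179's remote library as control, and leaving out libraries. Libraries held 14255456 to 42566498 counts, and the spread between libraries, not counting error, limited the precision for the tested factors; Hand1 had no counts in most libraries. Protein sequences of the factors were not used here.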

Additional observations from a re-analysis of the deposited data

Results flagged for a closer look

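In 6 of 39 combinations of a factor and a group, 1 library lay far from the rest of its group by Dixon's criterion, which chance meets in about 1 of 20 groups. Hand2 in the control infarct library of mouse 9171 was 14.2 CPM, with the next lowest at 23.8 CPM. Gata6 was 36.8 CPM in the CKD infarct library of mouse 9175, with the next lowest at 55.0 CPM. It was 60.0 CPM in the control infarct library of mouse 9170, with the next highest at 48.1 CPM, and 83.0 CPM in the CKD remote library of mouse 9177, with the next highest at 64.7 CPM. Hand1 was 0.443 CPM in the CKD infarct library of mouse 9179 and 0.0504 CPM in the control remote library of mouse 9171. Every other library of each group was at 0. A group with counts in only 1 library meets the criterion in any case, so that chance rate does not cover these Hand1 groups.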

How the results depend on the processing

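Of 1052 single-factor values under the alternatives, 934 kept their direction and their side of the threshold. Another 64 dropped below it, 17 moved past it and 37 changed sign, none of the last called with all libraries. The tally pools tested comparisons with those given as a description only. It also includes comparisons in which no factor was called with all libraries. In remote myocardium 0 factors passed for CKD over control under every alternative run. For CKD over control in infarct tissue, the comparison that singled out Hand2, and for the difference between diets, the numbers of factors under the threshold are given only to show how they vary, and nothing is read from them. In infarct tissue there were 4, against 7 by DESeq2, 0 with the covariate and 0 without CKD mice 9172 and 9179, and 0 to 8 without 1 library. Infarct over remote in control mice had 7 factors called, 6 to 8 without 1 library and 7 with the mouse number as a replicate block. In CKD mice 5 were called, 3 without a filter on low counts, 3 with mouse 9179's remote library as control, 4 with the replicate block, and 1 to 5 without 1 library, 1 being the count without the infarct library of mouse 9174 and 2 without that of mouse 9175. The block changed no call but that of Tbx20. For the difference between diets there was 1 by DESeq2, Nkx2-5, and 0 by edgeR.

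Sign changes were these. In remote myocardium CKD over control became 0.036 for Gata4 with mouse 9179's library as control, and -0.12 for Tbx5, 0.046 for Tbx20 and -0.15 for Mef2d with the covariate. The covariate also gave 0.12 for Tbx20 in infarct tissue, and -0.18 for Gata6 and -0.10 for Mef2a in the difference between diets, where the replicate block gave -0.025 for Gata6. Leaving out 1 library gave -0.12 to 0.18 for Gata4, -0.13 to 0.052 for Tbx20 and -0.066 to 0.14 for Mef2d in remote CKD over control, and -0.17 to 0.027 for Tbx20 in infarct tissue. It gave -0.22 to 0.024 for Gata6 in infarct over remote of control mice, -0.16 to 0.042 for Mef2c in CKD mice, and -0.092 to 0.13 for Gata6 and -0.13 to 0.10 for Tbx20 in the difference between diets. The causes were not tested.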
